A study of Homo sapiens with 6 samples.

Results

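The genes described here encode the proteins that mark replication origins, open the DNA helix and copy it at the fork. The 42 members were taken by gene symbol, and all 42 were among the 18625 genes of the deposited table. No measured value entered that rule, but earlier results of these data were known when the members were chosen. Transcripts were measured by RNA-seq in NB4 cells kept for 3 days with or without Tanshinone I (Tan I), a lipid-soluble compound of the herb Salvia miltiorrhiza. NB4 is an established line derived from human promyelocytic leukemia, a cancer of granulocyte precursors that carries the PML-RARA fusion. The control group received DMSO, the solvent, and the treated group received 10 μM Tan I, with 3 libraries per group and the same culture medium throughout. All 6 libraries thus come from 1 cell line and 1 dose and time, and the labels do not say whether the replicates were separate cultures, so the p-values measure only the spread between these libraries, which may be technical.

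Replication is prepared in G1 phase, when the origin recognition complex (ORC) binds DNA and, with CDC6 and CDT1, loads the ring-shaped MCM2-7 helicase, a step that geminin (GMNN) blocks by binding CDT1. In S phase CDC45 and GINS join the ring to form the active helicase, polymerase alpha-primase lays down primers, and polymerases epsilon and delta extend the leading and lagging strands. Replication factor C (RFC) places the PCNA clamp on DNA, RPA covers single strands, and FEN1, DNA2 and LIG1 finish Okazaki fragments. Many of these genes are known targets of the E2F transcription factors and are used as readouts of cell proliferation.

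The promoters of the members were searched for such sequences. In the windows from 250 bases before to 50 bases after the RefSeq start (GRCh38.p14), 4 E2F-type octamers were searched on both strands, namely TTTCCCGC, TTTCGCGC, TTTGCCGC and TTTGGCGC. Of the 35 members with a promoter entry, 17 (48.6%) held at least 1 of them, against 908 of 27305 promoters in the whole table (3.33%) and 564 of the 10515 promoters of genes tested (5.36%). At least 2 octamers, overlapping ones counted, were found in 4 members. For the 30-base windows below, overlap with genes other than the member itself was not checked. The entries are shown because they belong to the clamp or to helicase subunits with windows outside their own annotated gene. Each is a window of 30 bases, 5′ to 3′ on the strand of the gene, with the octamers in capitals.
MCM3, chr6:52284898-52284927, minus strand, octamer 174 bases upstream of the start: cggatggtacgTTTCCCGCcaccgcggggc
MCM6, chr2:135876577-135876606, minus strand, octamer 152 bases upstream: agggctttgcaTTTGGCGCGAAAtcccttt
MCM6, chr2:135876515-135876544, minus strand, octamer 90 bases upstream: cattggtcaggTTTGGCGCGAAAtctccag
PCNA, chr20:5126663-5126692, minus strand, octamer 59 bases upstream: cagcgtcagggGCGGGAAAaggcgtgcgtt
Each MCM6 window holds 2 octamers of opposite strand that overlap. A match is only an occurrence of these letters, and no binding was measured. MCM4, MCM5, GINS4, POLD3, RPA2, RPA3 and DNA2 had no entry.

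Sequencing depth, as reads recovered over all listed genes, was 25356503 to 31679138 for DMSO and 21502760 to 24298627 for Tan I. On the leading principal component of the genes tested, which held 70.8% of the variance, DMSO replicate 2 (41.1) and Tan I replicates 2 and 3 (8.65 and 71.6) lay above 0, and the other 3 libraries lay between -48.0 and -26.7. The component thus separated libraries of the same group. Of the 23 marker genes listed for cell types, 16 were measured. The 6 measured promyelocyte markers, among them the granule enzyme MPO, summed to 74258 to 80748 normalized counts with DMSO and 44626 to 52893 with Tan I, and 3 of them (MPO, CTSG and MYB) were called lower. MPO alone gave 60389 to 64107 of the counts with DMSO and 33279 to 39450 with Tan I, while PRTN3, AZU1 and CD33 overlapped between the groups, with log2 fold changes of -0.32, -0.25 and 0.07. The 2 measured lymphocyte markers summed to at most 138 in any library. The 4 measured markers of mature myeloid cells summed to 2671 to 2965 with DMSO and 2212 to 2653 with Tan I, and 0 of them was called. ELANE, a defining promyelocyte marker, was not analysed here. The part of these markers in the results on replication genes was not tested.

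In these cells the transcript levels of the replication genes, taken by their median, differed little between Tan I and DMSO. Values are normalized counts (reads divided by the size factor of the library), and fold changes are Tan I over DMSO on log2(normalized count + 1), from limma with its standard error (SE), n = 3 per group. The median log2 fold change of the 42 members was 0.06, beside -0.00 over the 16887 genes tested, with a range from -0.32 (PRIM1) to 0.27 (ORC4). Of the members, 29 had a value above 0 and 13 below, which is 69.0%, where 49.7% of all genes tested were above 0. Among the 9115 genes with a mean level at or above that of the lowest member, 55.9% were above 0 and the median was 0.02. The split of the members was 20 above and 22 below with quantile normalization, which left 49.9% of all genes above 0, and 21 and 21 with the leading principal component as a covariate or without Tan I replicate 3.

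A gene was called when its unadjusted p was 0.05 or less and its log2 fold change was at least 0.25 in either direction. By this rule 1 member was called higher, ORC4, and 1 lower, PRIM1. The background was 1.32% of all genes tested called higher and 1.1% called lower (2.42% in either direction), so 1 of 42 in each direction is near it. Without Tan I replicate 1, 2 members were called in each direction, and 1496 genes in all. After Benjamini-Hochberg adjustment over all 16887 genes, limma called 0 members and 0 genes in all, while 2 members and 410 genes had an unadjusted p of at most 0.05. edgeR and DESeq2 on the recovered reads also called 0 members after adjustment. The smallest adjusted p of a member was 0.999 in the main limma fit. For ORC4, MCM2 and PRIM1 it was lower in other fits, though above 0.05. The Tan I libraries all lay above the DMSO libraries for 1 member (ORC4) and all below for 2 (MCM2 and PRIM1), where 3.92% and 3.97% of all genes tested did so. In bulk libraries, fewer cells of a type and less RNA per cell cannot be told apart.

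The precision allowed a bound on the differences that were not called. The SE of the members ran from 0.10 to 0.34, and the 95% confidence interval of all 42 lay within 1 on the log2 scale, a change by a factor of 2. For 29 members it lay within 0.58, a 1.5-fold change in either direction. Of the 9115 genes tested with a mean at or above that of the lowest member, 8806 had intervals within 1 and 5885 within 0.58. The bounds on the members were thus near those of other genes at such levels. The widest bounds were -0.63 (GINS3) and 0.97 (FEN1). Every member was well covered, with 194 reads as the lowest count in any library.

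**Figure D1:**
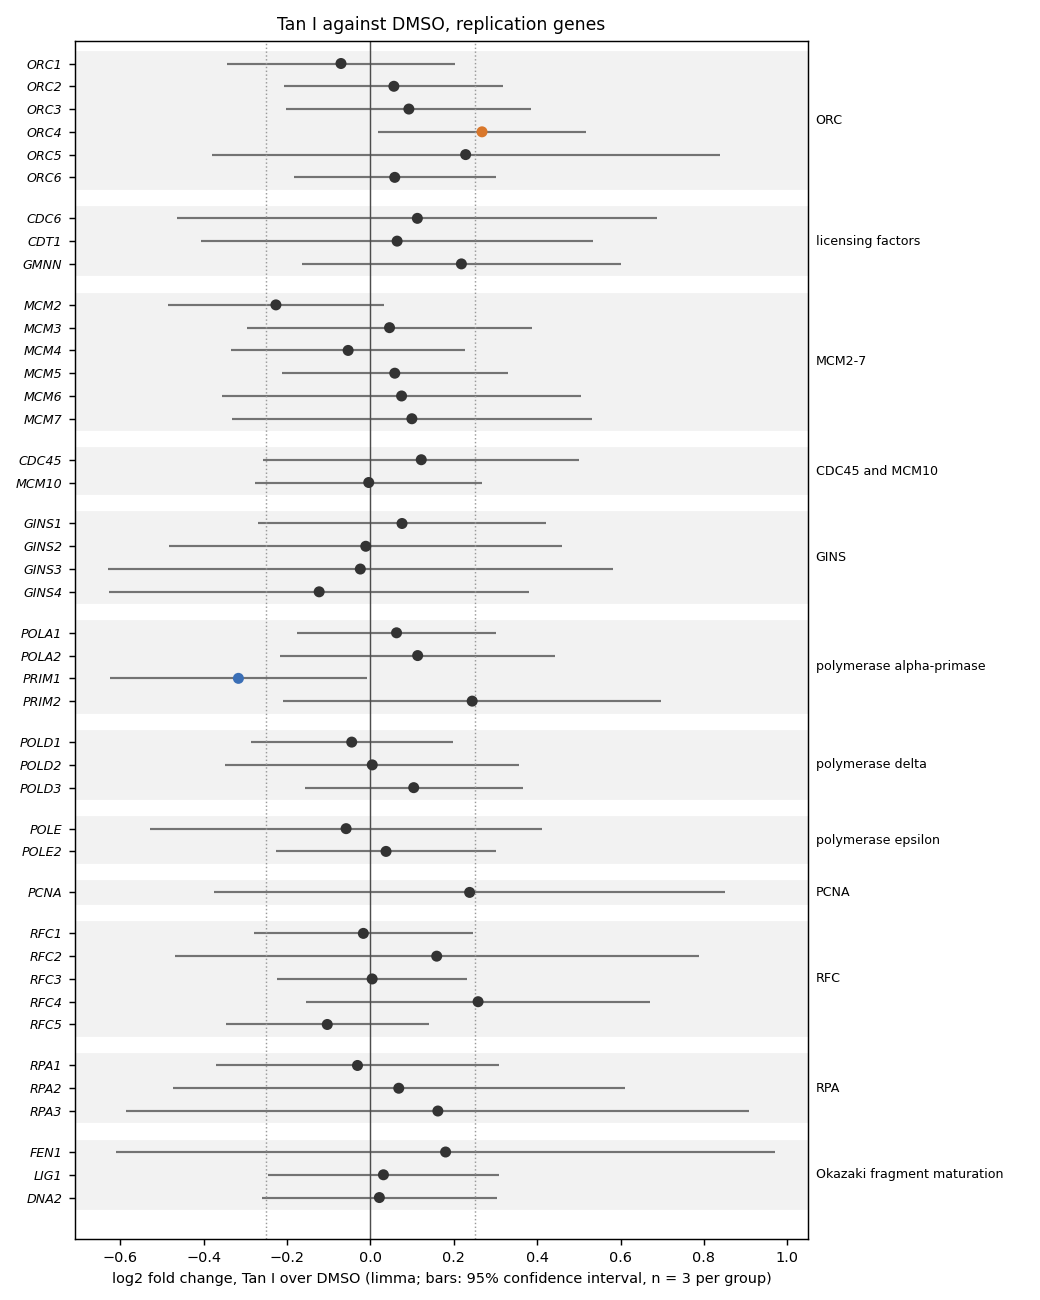
Log2 fold change (Tan I over DMSO) for the 42 replication genes (points, horizontal axis), with 95% confidence intervals from limma (n = 3 per group), grouped by complex; dotted lines mark 0.25 in either direction. Only ORC4 (orange, 0.27) and PRIM1 (blue, -0.32) have intervals that leave out 0.

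Among the 6 subunits of ORC, which binds origins, the median log2 fold change was 0.08 and 5 of 6 were above 0. ORC4, one of its ATPase-family subunits (ENSG00000115947, chr2:147930396-148021604 on the minus strand of GRCh38, 14 exons in the canonical transcript), was measured at 1290, 1236 and 1275 normalized counts in DMSO replicates 1 to 3. In Tan I replicates 1 to 3 it stood at 1409, 1611 and 1562. The lowest Tan I library lay above the highest DMSO library, by less than the range within the Tan I group. The log2 fold change was 0.27 (SE 0.11, 95% interval 0.02 to 0.52, limma p = 0.0394, adjusted p = 0.999), and the exact two-sided permutation p was 0.1, the smallest that 3 against 3 libraries can give. The call was lost when DMSO replicate 1, 2 or 3 was left out (log2 fold change 0.28, 0.25 and 0.27) and when Tan I replicate 2 or 3 was (0.23 and 0.25), with an unadjusted limma p above 0.05 each time. It was also lost when the libraries were rescaled to the same total (0.21), and 6.59% of the exonic bases of ORC4 are shared with ACVR2A and MBD5 on the opposite strand.

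The other ORC subunits overlapped between the groups. ORC5 had the next highest log2 fold change (0.23, SE 0.26), with 181 to 328 normalized counts in DMSO and 237 to 325 with Tan I. ORC6 was the most even of the 6, with all libraries between 3824 and 4362. ORC1, ORC2 and ORC3 had log2 fold changes of -0.07, 0.06 and 0.09.

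The licensing factors CDC6, CDT1 and GMNN had log2 fold changes of 0.11, 0.06 and 0.22, and 0 of the 3 was called. GMNN, the inhibitor of licensing, was at 1907, 2428 and 1862 normalized counts with DMSO and 2049, 2351 and 2818 with Tan I. The DMSO replicate 2 value lay above 2 of the 3 Tan I values, and the SE of the fold change was 0.16. Its log2 fold change ran from 0.098 without Tan I replicate 3 to 0.34 without DMSO replicate 2. CDT1, the loader of the MCM ring, ran from 10970 to 14333 in DMSO and from 10071 to 16315 with Tan I, so its Tan I range enclosed the DMSO range.

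The MCM2-7 ring, the core of the helicase, had a median of 0.05, and 4 of its 6 subunits were above 0. The sign of this median turned with quantile normalization (-0.036), rescaling to a common total (-0.007), the principal component as a covariate (-0.025), and without DMSO replicate 1 (-0.004), DMSO replicate 3 (-0.005) or Tan I replicate 3 (-0.053). MCM2 (ENSG00000073111, chr3:127598410-127622436 on the plus strand, 16 exons) was measured at 5011, 5207 and 4923 normalized counts in DMSO and at 4703, 4022 and 4237 with Tan I. All 3 Tan I libraries lay below all 3 DMSO libraries. The log2 fold change was -0.23 (SE 0.11, 95% interval -0.49 to 0.03), smaller in size than a call requires. The limma p of 0.077 missed the threshold for p. The exact permutation p was 0.1, the smallest that 3 against 3 libraries can give, so that test could not have met the threshold. The other 5 subunits, which act with MCM2 in equal numbers in the ring, had log2 fold changes between -0.05 (MCM4) and 0.10 (MCM7), and their groups overlapped. An antisense lncRNA that is listed in the table shares 23.6% of the exonic bases of MCM2, and the sources used here do not state whether the counting used strand.

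The partners that activate the ring differed as little. CDC45 was at 1106, 1513 and 1180 normalized counts in DMSO and 1201, 1356 and 1562 with Tan I. The groups overlapped and the log2 fold change was 0.12 (SE 0.16), or 0.025 without Tan I replicate 3 and 0.26 without DMSO replicate 2. MCM10, which helps the helicase start, had a value of -0.00 (SE 0.12). In GINS the median was -0.02 (0.15 without DMSO replicate 2, 0.13 without Tan I replicate 1 and 0.008 without Tan I replicate 2), and the member with the most different groups, GINS4, gave 570, 408 and 616 in DMSO and 598, 471 and 393 with Tan I. DMSO replicate 2 and Tan I replicate 3 were its lowest libraries, and the log2 fold change of -0.12 (SE 0.22) was smaller than its SE. Antisense lncRNAs share 23.4% of the exonic bases of GINS4, 1 of 6 members with over 10% shared. GINS1, GINS2 and GINS3 had log2 fold changes of 0.08, -0.01 and -0.02.

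PRIM1, the catalytic subunit of primase, was the member with the lowest fold change. The gene (ENSG00000198056) lies at chr12:56730438-56752374 on the minus strand of GRCh38 and has 13 exons in its canonical transcript. It was measured at 740, 763 and 700 normalized counts in the DMSO libraries. The Tan I libraries gave 660, 517 and 599, all below the lowest DMSO value. The log2 fold change was -0.32 (SE 0.13, 95% interval -0.62 to -0.01, limma p = 0.0453, adjusted p = 0.999), with an exact permutation p of 0.1. The call was lost without DMSO replicate 1, 2 or 3 (log2 fold change -0.31, -0.29 and -0.35) and without Tan I replicate 2 or 3 (-0.22 and -0.33), where the unadjusted limma p was above 0.05 each time. Of its exonic bases 19.1% are shared with NACA, HSD17B6 and another gene model, and reads on those bases cannot be assigned to PRIM1 with certainty.

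The partners of PRIM1 in polymerase alpha-primase had fold changes of the opposite sign that were not called. PRIM2, the regulatory subunit of primase, had a log2 fold change of 0.24 (SE 0.19), with 610 to 838 normalized counts in DMSO and 676 to 1039 with Tan I. POLA1, the polymerase subunit, was among the most even members, with all libraries between 1332 and 1506 and a log2 fold change of 0.06. POLA2 had 0.11.

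The replicative polymerases stayed close to 0. For polymerase delta the log2 fold changes were -0.04 (POLD1, the catalytic subunit), 0.00 (POLD2) and 0.10 (POLD3). POLD3 was at 1246, 1384 and 1226 normalized counts in DMSO and 1315, 1354 and 1474 with Tan I, so 2 of the Tan I libraries lay within the DMSO range. POLE, the catalytic subunit of polymerase epsilon, was at 8801, 6003 and 8046 in DMSO and 8835, 7193 and 5924 with Tan I. Its lowest libraries were DMSO replicate 2 and Tan I replicate 3, and the log2 fold change was -0.06 (SE 0.20). Without Tan I replicate 3 it was 0.08. POLE2 had a log2 fold change of 0.04.

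PCNA, the sliding clamp and the classic marker of S phase, was at 4600, 7648 and 5065 normalized counts in DMSO. With Tan I it was at 5045, 6454 and 8974. DMSO replicate 2 stood above 2 of the 3 Tan I libraries, and the log2 fold change of 0.24 came with a 95% interval from -0.37 to 0.85. It was 0.02 without Tan I replicate 3, 0.093 without DMSO replicate 1, 0.44 without Tan I replicate 1 and 0.46 without DMSO replicate 2. Its loader RFC had a median of 0.00. RFC4, with the highest value of that complex (0.26, SE 0.18, exact permutation p = 0.2), gave 2887, 3548 and 2822 in DMSO and 2999, 3649 and 4521 with Tan I. The groups overlapped because DMSO replicate 2 exceeded Tan I replicate 1. Its value ran from 0.11 without Tan I replicate 3 to 0.40 without Tan I replicate 1. RFC3 was the most even of all 42 members, since its highest library exceeded its lowest by a factor of 1.06.

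RPA3 and FEN1, of the single-strand binding and Okazaki fragment groups, had the widest spread between libraries of the 42 members. RPA3, the small subunit of RPA, was at 1029, 1910 and 1317 normalized counts in DMSO and 1106, 1390 and 2358 with Tan I. FEN1, the flap endonuclease, was at 2533, 4874 and 2708 in DMSO and 2598, 3366 and 5561 with Tan I. In both genes DMSO replicate 2 and Tan I replicate 3 were the highest libraries, and the highest exceeded the lowest by factors of 2.29 and 2.20. The log2 fold changes were 0.16 (SE 0.32) for RPA3 and 0.18 (SE 0.34) for FEN1, and without Tan I replicate 3 they were -0.15 and -0.12. RPA1 and RPA2 had -0.03 and 0.07, and LIG1 and DNA2 had 0.03 and 0.02.

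**Figure D2:**
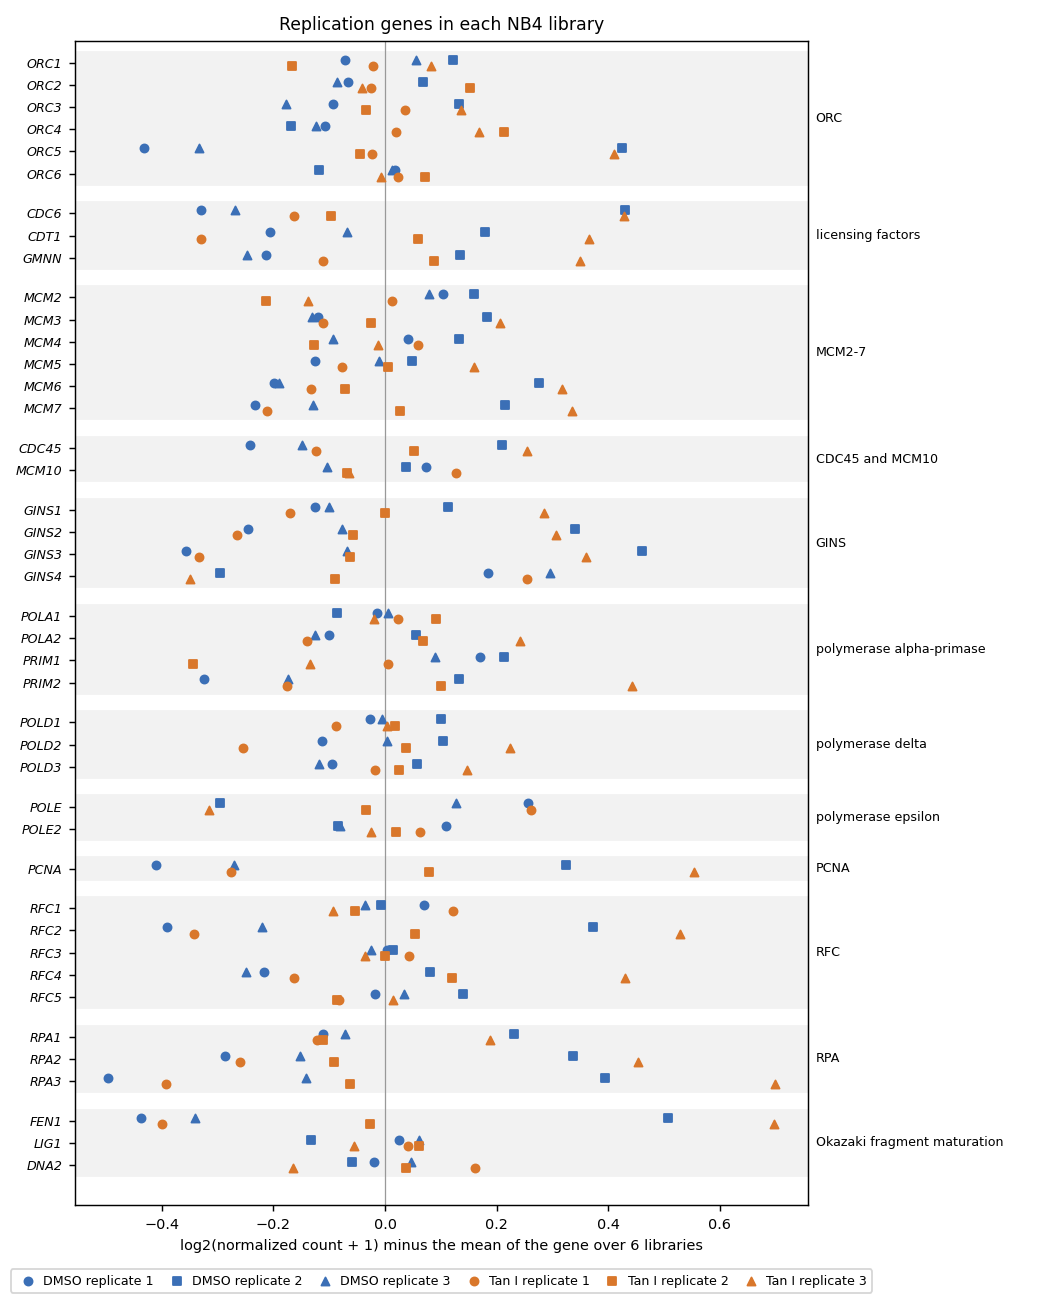
Level of each of the 42 genes in each library, as log2(normalized count + 1) minus the mean of the gene over the 6 libraries (horizontal axis); blue points are DMSO, orange points Tan I, and the shape gives the replicate. The groups overlap for all genes other than ORC4, MCM2 and PRIM1, and DMSO replicate 2 (blue squares) and Tan I replicate 3 (orange triangles) hold the highest value of 30 of the 42 genes. These libraries also had the highest normalized totals over all listed genes.

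Libraries within a group differed more than the groups did. The members' mean log2 level, relative to the mean of each gene over all libraries, was -0.12, 0.13 and -0.08 in DMSO replicates 1 to 3 and -0.08, -0.01 and 0.17 in Tan I replicates 1 to 3. The difference between the group means was 0.05, below the SD within either group (0.14 and 0.13). For 35 of the 42 members the absolute log2 fold change was smaller than the SD within groups. The share of all genes for which this held was not counted. Without DMSO replicate 2 the median log2 fold change of the members was 0.15, and without Tan I replicate 3 it was 0.01.

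The pattern of libraries was chosen for description after the values were seen. DMSO replicate 2 and Tan I replicate 3 also had the highest normalized totals over all listed genes, at 26277954 and 28675740. The totals of the other libraries ran from 23643626 (DMSO replicate 1) to 25557677 (Tan I replicate 2), so the pattern is not particular to the members. DMSO replicate 2 exceeded DMSO replicate 1 for 32 members, and Tan I replicate 3 exceeded Tan I replicate 1 for 28, with the same sign in both for 36. The matching counts over all genes were not made. Across the 42 genes, which share these 4 libraries and are not independent replicates, the 2 differences had a Pearson correlation of 0.92 and a Spearman correlation of 0.91. Over all 16887 genes tested the Pearson correlation was 0.79. FEN1, RPA3, RFC2 and PCNA lay at the high end of both differences, and POLE and GINS4 at the low end.

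Transcript length went with these differences. Across the members the log2 length of the longest transcript had Pearson correlations of -0.50 with the DMSO difference and -0.51 with the Tan I difference, so short transcripts such as PCNA tended to be higher in DMSO replicate 2 and Tan I replicate 3. Over all genes with an annotated length (16825) the Pearson correlations were 0.03 and -0.02 and the Spearman correlations -0.18 and -0.27. RNA quality was not measured, and its part in the difference between libraries was not tested.

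**Figure D3:**
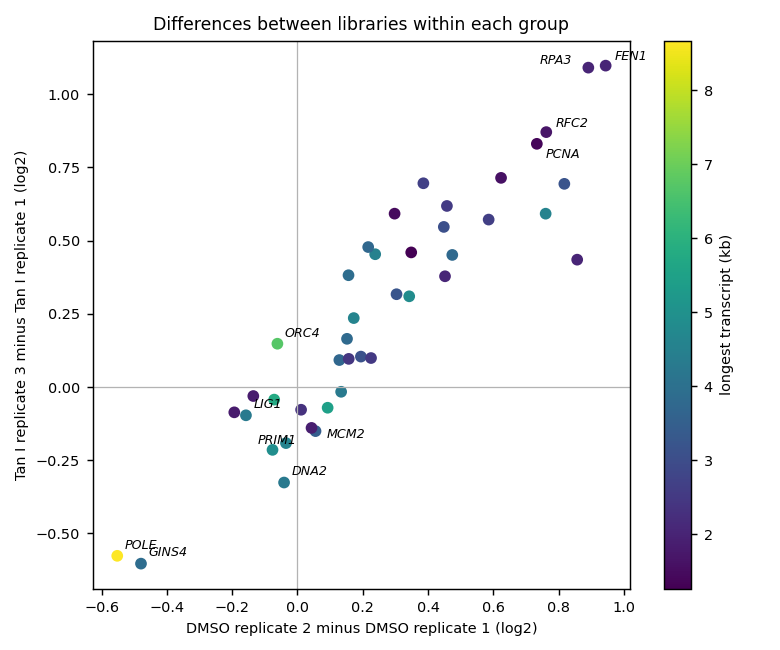
Difference in log2 level between DMSO replicates 2 and 1 (horizontal axis) and between Tan I replicates 3 and 1 (vertical axis) for each of the 42 genes, coloured by the length of the longest transcript in kb. FEN1 and RPA3 lie at the upper right and POLE, the longest transcript, and GINS4 at the lower left, and 36 of 42 genes have the same sign on both axes.

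By complex, most groups followed the same libraries. RPA had means of -0.30, 0.32 and -0.12 in DMSO replicates 1 to 3 and -0.26, -0.09 and 0.45 in Tan I replicates 1 to 3. The licensing factors showed the same order of extremes, with -0.25 in DMSO replicate 1 and 0.38 in Tan I replicate 3. Polymerase epsilon (POLE and POLE2) ran the other way, at 0.18 and -0.19 in DMSO replicates 1 and 2 and at 0.16 and -0.17 in Tan I replicates 1 and 3.

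**Figure D4:**
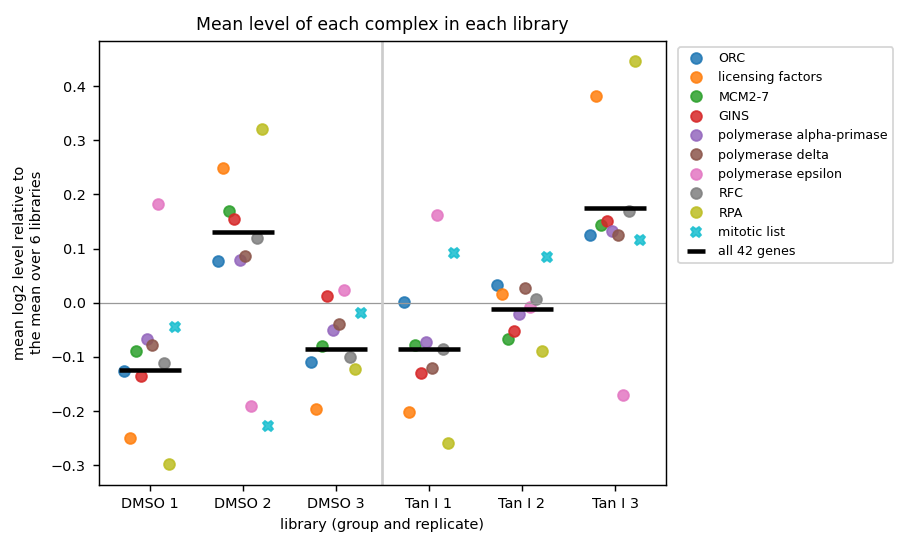
Mean log2 level of 9 of the complexes (circles), the mitotic list (crosses) and all 42 genes (black bars) in each library, relative to the mean of each gene over the 6 libraries. The black bars stand highest in DMSO replicate 2 (0.13) and Tan I replicate 3 (0.17), and the mitotic list lies above 0 in the Tan I libraries and below 0 in the DMSO libraries.

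Per kb of transcript, the only scale on which genes can be compared, levels spanned a wide range within single complexes. In DMSO, CDT1 stood highest at 4676 ± 644 normalized counts per kb (SD, n = 3), followed by PCNA at 4246 ± 1208, 2 genes that did not differ beyond their spread. MCM7 (2777 ± 466), MCM3 (2774 ± 354) and LIG1 (2695 ± 189) came next and also lay within the spread of each other. At the low end stood ORC5 (115 ± 40.0) and GINS3 (113 ± 33.5), again not apart. These levels use the longest annotated transcript, and the order depended on that choice. With the union of exons as the length, CDT1 and PCNA were again first and second (4513 ± 621 and 4113 ± 1170), but LIG1 stood at 1022 ± 71.7, below MCM3 (2442 ± 311), and POLA2 was lowest at 44.6 ± 3.10. Other genes share 21.3% of the exonic bases of POLA2 and 10.9% of those of GINS3.

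By these annotated lengths, subunits of 1 complex were thus not at equal levels per kb, but the length of the transcripts expressed was not measured. ORC6 exceeded ORC5 by a factor of 19.4 (15.0 with the union of all exons as the length), MCM7 exceeded MCM5 by 3.06 (3.01), and GINS2 exceeded GINS3 by 7.69 (10.0). RFC4 exceeded RFC3 by 2.27, or by 1.36 with the union of exons. With that length the highest subunits were MCM3, at 4.25 times MCM5, and RFC2, at 1.66 times RFC3. The Tan I levels per kb lay near the DMSO levels for each of these genes, for example 2311 ± 64.6 for ORC6 against 2221 ± 117 with DMSO.

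**Figure D5:**
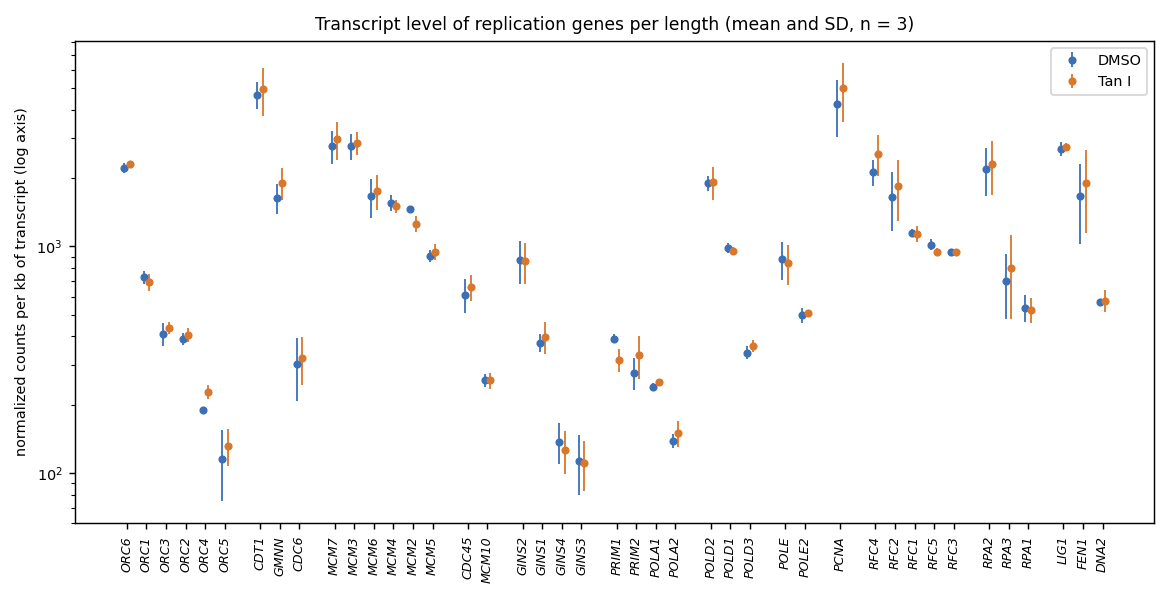
Normalized counts per kb of the longest transcript (vertical log axis) for the 42 genes, ordered by level within each complex; points are means and bars the SD over 3 libraries, in blue for DMSO and orange for Tan I. CDT1 and PCNA are highest (4676 and 4246 with DMSO) and ORC5 and GINS3 lowest (115 and 113).

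Members with and without an E2F-type octamer did not separate by fold change. The median log2 fold change was 0.06 for the 17 members with one and 0.06 for the 18 without. The 2 called members, ORC4 and PRIM1, held none of the octamers in their windows, as did FEN1 and RFC4, while PCNA held 1 and MCM2 held 2 (both just downstream of the start).

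The transcripts of other genes of the replication pathway also differed little by their median. The list held 40 genes for firing kinases and cyclins, fork protection, alternative clamp loaders and chromatin assembly, all of them in the table and tested. Of these 40, 1 was called higher and 0 lower in limma (background 1.32% and 1.1%), with 0 after adjustment. Their median log2 fold change was 0.04, with 26 above 0 and 14 below. The called gene was FBXO5, which encodes EMI1, an inhibitor of the anaphase-promoting complex. It stood at 1363, 1277 and 1207 normalized counts in DMSO and 1515, 1543 and 1660 with Tan I, a log2 fold change of 0.29 (SE 0.11, limma adjusted p = 0.999). The count called higher was 0 without DMSO replicate 2 or 3 or Tan I replicate 2 or 3, and 3 without Tan I replicate 1. CCNA2, cyclin A, was the other gene of that list with every Tan I library above every DMSO library (0.23, SE 0.11), where 3.92% of all genes tested did so.

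Genes of mitosis, taken as a second sign of proliferation, had a higher median than the replication genes. Their median log2 fold change was 0.24 over 16 genes, with 13 above 0, against 49.7% of all genes tested. Of the 16, 2 were called higher, against 1.32% of all genes tested. They were CCNB1 (cyclin B, 0.38) and AURKA (a spindle kinase, 0.31), with 0 after adjustment in limma. The count called higher was 7 without Tan I replicate 1, 0 without DMSO replicate 1, and 1 without DMSO replicate 3, Tan I replicate 2 or Tan I replicate 3. CCNB1 was at 3839, 3775 and 4369 normalized counts in DMSO and 4787, 5123 and 5738 with Tan I. Every Tan I library lay above every DMSO library for CCNB1, AURKA, CDK1 and PLK1, which is 4 of 16, against 3.92% of all genes tested. The 3 genes below 0 were MKI67 (-0.00), CENPF (-0.00) and BUB1B (-0.04), and their groups overlapped. In the libraries the mean of the list was -0.05, -0.23 and -0.02 with DMSO and 0.09, 0.08 and 0.12 with Tan I. DMSO replicate 2, high for replication genes, thus had the lowest mean for mitotic genes. Within the mitotic list the log2 difference of DMSO replicate 2 minus 1 ran from -0.94 (CENPE) to 0.48 (BIRC5). The relation of this difference, and of the fold changes, to transcript length was not tested in this list. The difference between the lists was not tested.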

How the data were processed

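RNA-seq was done on NB4 cells, with 3 DMSO and 3 Tan I libraries grouped by the sample labels. According to the methods and the labels, paired-end reads were aligned to GRCh38 with STAR, reads mapping to several places were removed, reads per gene were counted with featureCounts, and DESeq2 was used for normalization and testing; versions and the annotation release are not given in the sources used here. The authors deposited 1 table of 18625 genes, whose per-library signal values are read counts divided by 1 size factor per library. The table also holds the mean over libraries and the authors' own comparison (log2 fold change, its error, statistic and p-values), which were not used.

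Dividing each library's values by the value of 1 read gave whole numbers for 100% of them (tolerance 0.001), so reads were recovered. Because the deposited values are normalized, the main test was limma 3.58.1 (R 4.3.3) with a mean-variance trend on log2(normalized count + 1), two-sided, treatment as the only term, over 16887 genes whose mean normalized count was 10 or more, with Benjamini-Hochberg adjustment over all of them. The study's rule (unadjusted p of at most 0.05, absolute log2 fold change of at least 0.25) gave the calls. Exact permutation tests compared single genes, with 0.1 as the smallest p that 3 against 3 allows. Alternatives were edgeR 4.0.16 and DESeq2 1.42.0 on the recovered reads, other pseudocounts, filters and scalings, a replicate block, the first principal component as a covariate, leaving out each library, and a correction for transcript length and GC content that was chosen after seeing the data. The fits were also run on simulated reads, drawn independently for each gene with no component shared across genes. That run cannot show how the fits behave with the differences between these libraries. Positions, lengths and shared exons came from GENCODE release 44 (GRCh38), and promoter windows from RefSeq (GRCh38.p14).

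The members, gene lists and tests were chosen with earlier results of these data known. Values of every library are given for members called, members whose groups do not overlap, the member with the largest absolute fold change in each complex, and PCNA. Closest of all pairs were DMSO replicate 1 and Tan I replicate 1 (chi-square per gene 6.20, against 10.1 to 101 for the other pairs), which differed beyond sampling noise, so no library was counted as a duplicate.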

Additional observations from a re-analysis of the deposited data

How the results depend on the processing

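No member had an adjusted p of at most 0.05 in limma, edgeR or DESeq2 under any of the 12 alternatives or without any 1 library, and the median log2 fold change of the members ran from -0.00 to 0.07 over those alternatives and from 0.01 to 0.15 over the libraries left out. The split of 29 above 0 and 13 below became 20 and 22 with quantile normalization, 21 and 21 with the principal component as a covariate and without Tan I replicate 3, and 33 and 9 with the length and GC correction. Rescaling all libraries to 1 common total moved every gene down alike (median of all genes -0.06, 38.3% above 0). The members' median was then -0.00, about as far above that of all genes as before, so their split of 20 and 22 says nothing about them in particular, and the all-gene calls were 188 higher and 250 lower in place of 223 and 185.

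The count of members called higher was 0, in place of 1, with quantile normalization, rescaling, limma without the trend, the replicate block, and the correction for length and GC content, and 0 to 2 without 1 library. Without DMSO replicate 2 the count was 1, but the member called was not ORC4. Members called lower were 2 with quantile normalization (MCM2 and PRIM1), 0 without the trend and with the replicate block, and 0 to 2 without 1 library. Of the other replication genes, 0 were called higher with rescaling, without the trend and with the block, and 0 to 3 without 1 library. Of the mitotic genes, 1 was called higher with quantile normalization and without the trend, 4 with DESeq2, 7 with the principal component as a covariate (1 after adjustment, CCNB1), and 0 to 7 without 1 library. The cause of these changes was not tested. Over all genes, calls numbered 408, 409 with edgeR, 420 with DESeq2 (16 after adjustment), 1496 with the covariate (195 after adjustment), and from 160 without Tan I replicate 2 to 1496 without Tan I replicate 1, with 180, 201 and 271 without DMSO replicates 1 and 3 and Tan I replicate 3.

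The sign turned for POLE (0.062 with the covariate, 0.056 with the length and GC correction, -0.22 to 0.084 without 1 library), RPA3 (-0.047 with the covariate, -0.15 to 0.40 without 1 library), FEN1 (-0.043 and -0.12 to 0.48) and GINS4 (-0.30 to 0.021 without 1 library). The median of a complex turned sign under at least 1 alternative for 8 of 12 complexes and without 1 library for 8, and never for 3 (ORC, polymerase alpha-primase and PCNA). With the union of exons as the length, GINS2 exceeded GINS3 by a factor of 10.0 and RFC4 exceeded RFC3 by 1.36.

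The labels share replicate numbers, but the deviations of same-numbered libraries from their group means had correlations of 0.75, -0.09 and -0.45, and DMSO replicate 2 went best with Tan I replicate 3 (0.76), so the numbers were not taken as pairs. With the replicate block the calls over all genes numbered 348, and those among the members 0.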
